A study of Mus musculus with 4 samples.

Results

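The 39 protein-coding HOX genes were described in the outflow tract, from which the embryonic heart empties into the arteries, where Sox17eKO embryos were compared with wild-type (WT) embryos. They were taken by name as every gene of the 45706 in the count table whose mouse symbol is Hoxa, Hoxb, Hoxc or Hoxd followed by a number. In Sox17eKO embryos Sox17, which encodes an endothelial transcription factor, was deleted in aortic root endothelium with Cre recombinase under an Nfatc1 enhancer, while the whole outflow tract was sequenced. WT embryos are labelled wild type, and whether they carried the Cre or a floxed allele is not given in the sources used here. All embryos were C57BL/6 mice at embryonic day 12.5, and each of the 2 libraries per genotype came from outflow tracts of 10 pooled hearts.

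HOX genes encode homeodomain transcription factors that give cells of the body axis their position. They lie in 4 clusters, and genes with low paralogue numbers, at the 3' end of a cluster, are expressed from further forward in the embryo than genes with high numbers. Cardiac neural crest, which migrates from the caudal hindbrain through the pharyngeal arches into the outflow tract, and progenitors of the posterior second heart field, the pharyngeal mesoderm that adds muscle to both poles of the heart tube, are known in the mouse to use the low-numbered genes. Both populations respond to retinoic acid, which induces the 3' HOX genes.

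The Sox17eKO libraries held 14306550 and 21883956 reads in genes, against 12880081 and 8113463 reads in the WT libraries. Sox17 itself had 40 and 62 reads in Sox17eKO (2.76 and 2.82 CPM, the read count scaled to library size with TMM factors), against 78 and 54 reads in WT (6.05 and 6.83 CPM). All 6 cardiomyocyte markers checked were present, with sums of 16640 and 18250 CPM in Sox17eKO and 15970 and 16710 CPM in WT. The 6 liver markers, led by Afp, summed to 5.59 and 126 CPM in Sox17eKO and to 72.6 and 12.0 CPM in WT, so Sox17eKO replicate 2 and WT replicate 1 stood apart in this respect. The 6 erythroid markers, of which Hbb-y fell, summed to 1541 and 2003 CPM in Sox17eKO, against 2333 and 2928 CPM in WT. The labels call each pool a biological repeat, so p-values here measure the spread between pools of hearts.

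HOX genes were expressed at low levels and mostly from the front of the Hoxa and Hoxb clusters. All 39 together had 209 and 345 reads in the Sox17eKO libraries, which was 0.00146% and 0.00158% of reads in genes, against 218 and 140 reads in the WT libraries, 0.00169% and 0.00173%. Of these 912 reads, the 21 genes of the Hoxa and Hoxb clusters held 85.2% (95% Wilson interval 79.7 to 89.3) and 85.8% (81.7 to 89.1) in the Sox17eKO libraries, and 83.0% (77.5 to 87.4) and 89.3% (83.1 to 93.4) in the WT libraries. That grouping was chosen after the values were seen. The 4 intervals overlap, and all intervals cover counting error only. Hoxb13 and Hoxd1 had no read in any library, which allows up to 0.207 and 0.136 CPM in the Sox17eKO libraries and 0.233 and 0.38 CPM in the WT libraries (3 reads). A further 20 genes had between 1 and 9 reads over the 4 libraries together, and 17 had 10 or more.

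**Figure D1:**
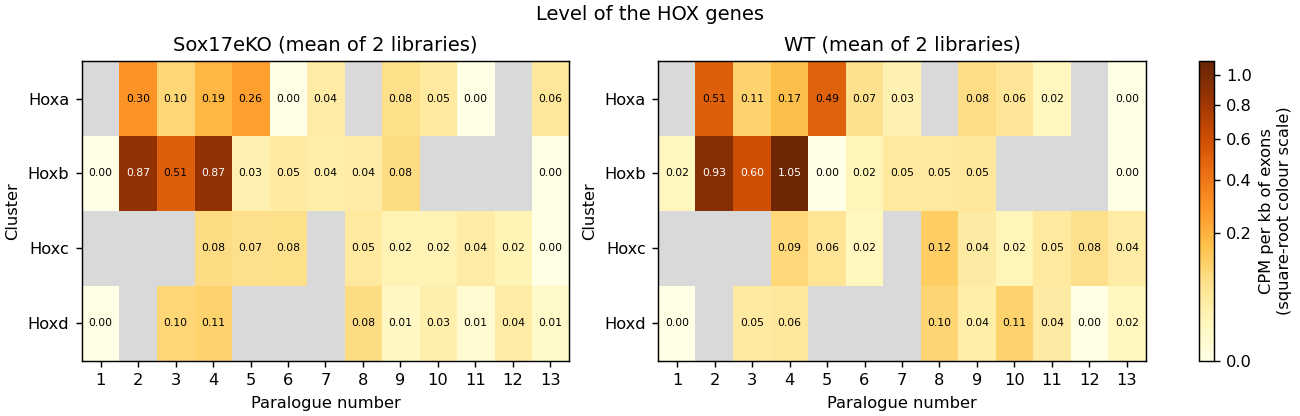
Mean level of each HOX gene shown, in Sox17eKO (left) and WT (right), n = 2 libraries each, in CPM per kb of exons on a square-root colour scale, by cluster (rows) and paralogue number (columns); grey cells are genes the mouse does not have or that are not shown. The dark cells in both panels are Hoxb2, Hoxb3 and Hoxb4, with Hoxa2 and Hoxa5 paler.

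To compare genes with each other, CPM was divided by the merged exon length in kb. On this scale the means over the 4 libraries were, in descending order, Hoxb4 (0.96), Hoxb2 (0.905), Hoxb3 (0.556), Hoxa2 (0.402) and Hoxa5 (0.373). These levels put the 5 genes between the 41.4th and the 47.4th percentile of protein-coding genes of the table. Hoxb4 and Hoxb2 did not differ beyond counting error (ratio 1.07, 95% interval 0.853 to 1.34), nor did Hoxa2 and Hoxa5 (1.03, 0.641 to 1.65). Hoxb2 exceeded Hoxb3 in all 4 libraries (1.72, 1.36 to 2.17). That last order held with the longest transcript as the length (1.43, 1.14 to 1.82) but not per unshared base (1.11, 0.881 to 1.41). Of the exonic bases of Hoxb3, 52.9% lie under another gene, all on the opposite strand. Whether reads from such bases were counted depends on the strand setting of the counting, which is not given. Hoxb4 was 1.84 times Hoxb3 per merged exon length and 0.866 times per unshared base, and the ratio of Hoxb4 to Hoxb2 was 0.778 (0.62 to 0.976) per unshared base.

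Paralogue group 2 patterns the hindbrain and the skeleton of the second arch. Hoxb2 (chromosome 11, 96350525 to 96354012, plus strand) had 43 and 69 reads in Sox17eKO (2.97 and 3.14 CPM), against 40 and 27 reads in WT (3.10 and 3.42 CPM). Hoxa2, whose product keeps second-arch crest from taking a first-arch fate, had 4 and 17 reads in Sox17eKO (0.276 and 0.773 CPM), against 7 and 10 reads in WT (0.543 and 1.27 CPM). The genotypes overlap for both genes. Hoxb2 was 2.40 times as high as Hoxa2 per kb (1.68 to 3.50), and higher in all 4 libraries.

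Paralogue group 3 marks crest and endoderm of the third arch, which gives the carotid artery, thymus and parathyroid. Hoxb3 (chromosome 11, 96323326 to 96347930, plus strand) had 36 and 41 reads in Sox17eKO (2.48 and 1.86 CPM), against 25 and 25 reads in WT (1.94 and 3.16 CPM). Hoxa3, needed in the mouse for the thymus, had 7 and 16 reads in Sox17eKO, against 9 and 5 in WT. Hoxd3 had 3 and 14 reads in Sox17eKO, against 5 and 0 in WT. Hoxb3 was thus the main gene of the group, 4.86 times Hoxa3 per kb (3.34 to 7.21) and 5.69 times Hoxd3 (3.60 to 9.40). With the longest transcript as the length the first ratio was 2.79, and per unshared base 7.52. Of the exonic bases of Hoxd3 and Hoxd4, 62.3% and 52.3% lie under another gene of the same strand, whose reads a gene counter cannot assign, so both counts may be too low.

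In paralogue group 4 Hoxb4, a gene expressed up to the caudal hindbrain and in blood progenitors, stood above the 3 others. Its position is chromosome 11, 96318267 to 96321638, plus strand, and it had 27 and 57 reads in Sox17eKO (1.86 and 2.59 CPM), against 37 and 20 reads in WT (2.87 and 2.53 CPM). Sox17eKO replicate 1 was the lowest, and the genotypes overlap. Hoxb4 was 5.47 times Hoxa4 per kb (3.26 to 9.84), 10.9 times Hoxc4 (6.15 to 20.9) and 11.6 times Hoxd4 (6.67 to 21.7), higher in all 4 libraries each time. Per unshared base the ratio to Hoxd4 was 5.52. In blood progenitor and leukocyte markers, which include cells known to use Hoxb4, the 6 genes summed to 196 and 216 CPM in Sox17eKO and to 224 and 224 CPM in WT. Most of that sum was Cd34, at 146 and 165 CPM in Sox17eKO and 178 and 172 CPM in WT. Csf1r had 25.7 and 25.3 CPM in Sox17eKO and 22.2 and 25.3 CPM in WT. The median log2 fold change of the 5 tested markers was -0.004. The part of such cells in the level of Hoxb4 was not tested.

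A sharp step in level lay between Hoxb4 and Hoxb5, which are neighbours 12145 bp apart. Hoxb5, a gene of the vagal region and the enteric crest, had 1 and 2 reads in Sox17eKO, against 0 and 0 in WT, while Hoxb4 had at least 20 reads in every library. Per kb, Hoxb4 was 51.0 times Hoxb5 (17.1 to 250). A like step stood at the other end of the active stretch, where Hoxb2 was 119 times Hoxb1 (21.1 to 4730) across 11739 bp. Hoxb1, a rhombomere-identity gene that also marks posterior second heart field, had 0 and 0 reads in Sox17eKO, against 1 and 0 reads in WT. Beyond Hoxb4, the 6 genes Hoxb5 to Hoxb13 had 27 reads in all, and their means ran between 0 and 0.0695 CPM per kb. Hoxb9 had the most reads of them, with 3 and 5 reads in Sox17eKO, against 2 and 1 in WT.

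In the Hoxa cluster the step came 1 gene later. Hoxa5, which patterns lung and cervical skeleton in the mouse, had 4 and 15 reads in Sox17eKO (0.276 and 0.682 CPM), against 14 and 6 reads in WT (1.09 and 0.759 CPM). Its neighbour Hoxa6, 1700 bp away, had 0 and 0 reads in Sox17eKO, against 0 and 1 in WT. The ratio of Hoxa5 to Hoxa6 per kb was 18.2 (3.07 to 735), and Hoxa5 was 19.3 times Hoxb5 (6.13 to 97.6). The step was less even than in Hoxb, since Hoxa4 had 4 and 7 reads in Sox17eKO and 2 and 3 in WT. The 6 genes Hoxa6 to Hoxa13 held 46 reads, 22 of them from Hoxa9, and Hoxa13, a gene of the distal limb and hindgut, had 2 and 3 reads in Sox17eKO and 0 and 0 in WT.

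**Figure D2:**
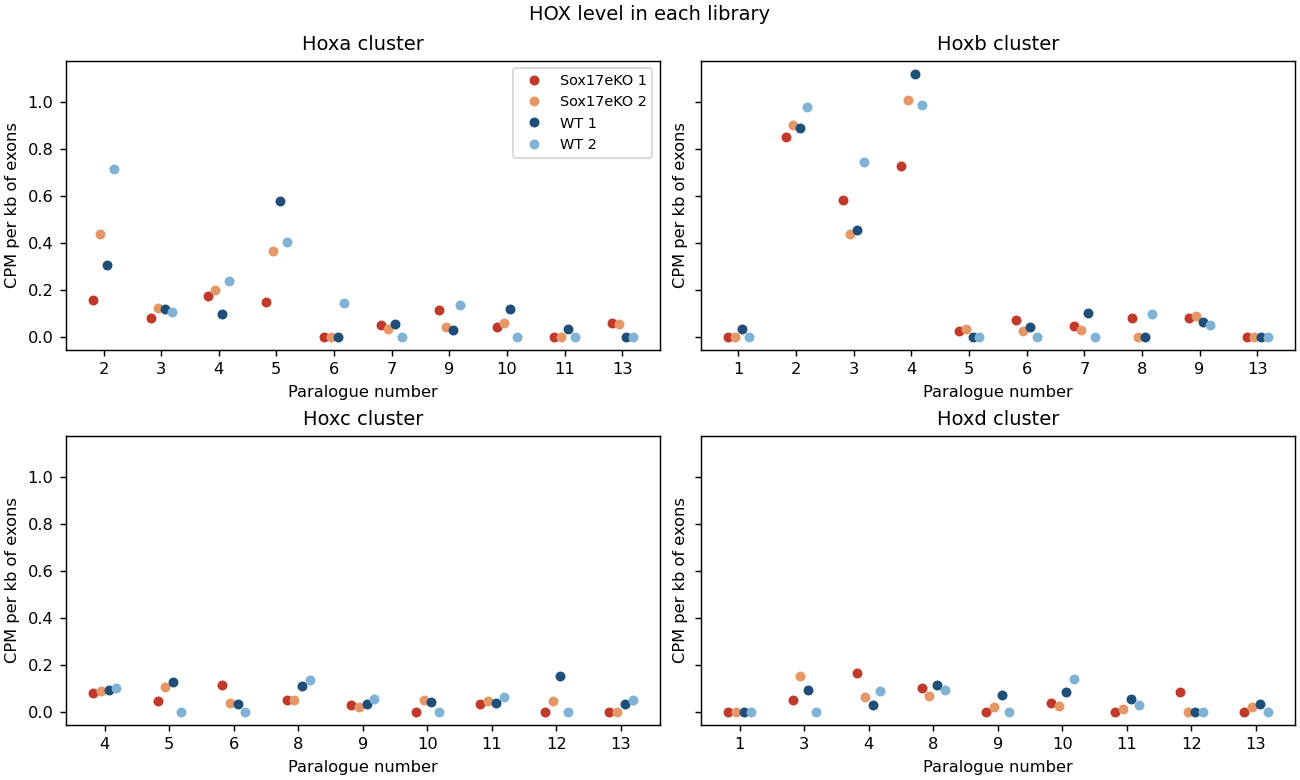
Level of each HOX gene shown, in each of the 4 libraries (CPM per kb of exons, linear axis), by paralogue number in the 4 clusters; red and orange points are Sox17eKO and blue points WT. In all libraries Hoxb2 to Hoxb4 stand high and Hoxb1 and Hoxb5 lie near 0, while the highest single value in Hoxc or Hoxd is 0.164, of Hoxd4.

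The sequences at the start sites of genes on both sides of these steps are shown because the genes are close neighbours or lie in 1 stretch yet differ in reads. Each runs from 250 bases before to 50 bases after the start annotated by RefSeq (GRCm38.p6), 5' to 3' on the strand of the gene. The windows are chr11:96318017-96318316 (plus strand) for Hoxb4, chr11:96365508-96365807 (plus strand) for Hoxb1, chr6:52204538-52204837 (minus strand) for Hoxa5 and chr6:52208623-52208922 (minus strand) for Hoxa6. Capitals mark the motif TGATNNAT, a form of the composite site bound by HOX proteins with their PBX partners, found on either strand.
Hoxb4: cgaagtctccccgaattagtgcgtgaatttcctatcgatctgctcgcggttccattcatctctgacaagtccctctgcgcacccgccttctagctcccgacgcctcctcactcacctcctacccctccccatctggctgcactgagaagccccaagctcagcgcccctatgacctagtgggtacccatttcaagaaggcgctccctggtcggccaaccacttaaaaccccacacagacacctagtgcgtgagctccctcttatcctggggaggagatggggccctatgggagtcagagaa
Hoxb1: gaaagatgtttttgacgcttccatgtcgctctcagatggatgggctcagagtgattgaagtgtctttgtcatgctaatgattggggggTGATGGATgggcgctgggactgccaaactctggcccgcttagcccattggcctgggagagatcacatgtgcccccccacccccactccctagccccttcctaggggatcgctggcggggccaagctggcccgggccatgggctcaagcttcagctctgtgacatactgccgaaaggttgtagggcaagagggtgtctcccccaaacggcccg
Hoxa5: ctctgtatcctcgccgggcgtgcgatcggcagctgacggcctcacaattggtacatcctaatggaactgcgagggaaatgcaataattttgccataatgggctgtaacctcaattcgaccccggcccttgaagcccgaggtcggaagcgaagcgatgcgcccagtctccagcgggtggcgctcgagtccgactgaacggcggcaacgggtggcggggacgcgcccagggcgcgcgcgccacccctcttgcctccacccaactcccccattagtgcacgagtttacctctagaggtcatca
Hoxa6: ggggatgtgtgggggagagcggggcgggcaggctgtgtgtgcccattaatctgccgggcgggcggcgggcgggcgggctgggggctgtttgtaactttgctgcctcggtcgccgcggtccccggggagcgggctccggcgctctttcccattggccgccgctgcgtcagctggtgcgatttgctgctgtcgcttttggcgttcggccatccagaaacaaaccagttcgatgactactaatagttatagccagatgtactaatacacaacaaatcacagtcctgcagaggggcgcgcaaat
Of these 4 windows, Hoxb1 alone held that motif, at 1 place. Hoxb1 is known in the mouse to be regulated by its own product and PBX proteins through such sites. Of all 32851 promoter windows of the same length, 8.85% held the motif, and 4 of the 24 HOX windows (of 22 genes) did. CCAAT stood on either strand in 15 of the 24 HOX windows, against 37.4% of all windows. TATAAA stood in 4 of the 24, against 13.6% of all windows. CG dinucleotides numbered 14 in Hoxb4, 10 in Hoxb1, 29 in Hoxa5 and 26 in Hoxa6, against a median of 7 over all windows. The bearing of CG content on level was not tested. A match or its absence within these windows says nothing of binding.

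The Hoxc and Hoxd clusters, which begin at the paralogue numbers 4 and 1 and serve trunk, limb and tail, had 31 and 49 reads together in the Sox17eKO libraries and 37 and 15 in the WT libraries. Hoxc genes had 2 to 14 reads each over the 4 libraries, and Hoxd genes 0 to 22. The highest per kb in Hoxc were Hoxc4 (3 and 5 reads in Sox17eKO, 3 and 2 in WT), Hoxc8 (2 and 3 in Sox17eKO, 4 and 3 in WT) and Hoxc5 (2 and 7 in Sox17eKO, 5 and 0 in WT). In Hoxd they were Hoxd8, with 4 and 4 reads in Sox17eKO and 4 and 2 in WT, Hoxd4, with 7 and 4 in Sox17eKO and 1 and 2 in WT, and Hoxd3. The highest numbers with at least 1 read a library on average were Hoxc11 (1 and 2 reads in Sox17eKO, 1 and 1 in WT) and Hoxd11 (0 and 1 in Sox17eKO, 3 and 1 in WT). Of the 16 genes with paralogue numbers 9 to 13, 13 had under 10 reads over the 4 libraries.

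By paralogue number, genes 1 to 3 made up 52.5% and 54.5% of the summed HOX level per kb in the Sox17eKO libraries, and 47.6% and 56.3% in the WT libraries. Genes 4 to 8 made up 37.9% and 37.1% in Sox17eKO and 39.9% and 35.6% in WT. Genes 9 to 13 made up 9.60% and 8.34% in Sox17eKO and 12.5% and 8.12% in WT. By cluster, Hoxb summed to 2.46 and 2.52 CPM per kb in Sox17eKO and to 2.70 and 2.85 in WT, and Hoxa to 1.67 and 2.33 CPM per kb in Sox17eKO and to 2.40 and 2.81 in WT. The mix of paralogue classes therefore overlapped between the genotypes in each class, and WT replicate 1 had the largest share of genes 9 to 13.

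**Figure D3:**
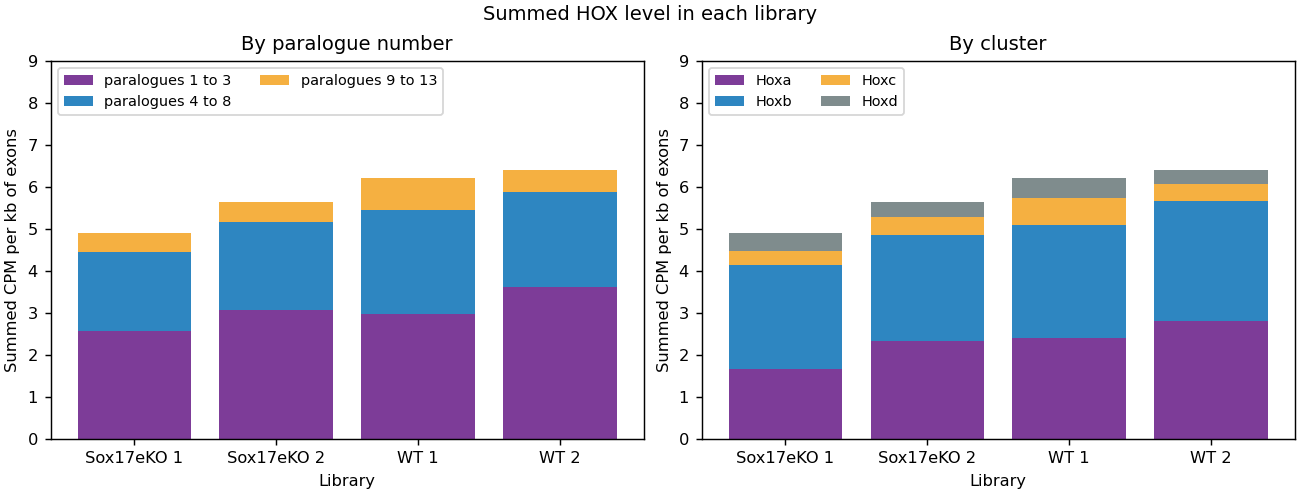
Summed HOX level in each library (CPM per kb of exons, stacked bars from 0), split by paralogue number (left) and by cluster (right). Both Sox17eKO bars are lower than both WT bars. The classes are stacked in a fixed order.

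The comparison of genotypes asked which genes follow the loss of SOX17, and no HOX gene passed. Of the 39 genes, 6 had enough reads to be tested with edgeR's quasi-likelihood test on all 16570 tested genes, and 0 were called at an adjusted p under 0.05, against 5.35% of all tested genes (4.13% higher and 1.22% lower in Sox17eKO). At an unadjusted p under 0.05 the count was also 0 of 6, and limma-voom called 0. DESeq2 left the adjusted p of all 6 genes as not available, and none of them had an unadjusted p under 0.05. The other 33 genes had 0 to 37 reads over the 4 libraries and were not tested.

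The log2 fold changes of Sox17eKO over WT with their standard errors were -0.55 ± 0.59 for Hoxa2, -0.88 ± 0.54 for Hoxa5, -0.08 ± 0.27 for Hoxb2, -0.20 ± 0.34 for Hoxb3 and -0.26 ± 0.31 for Hoxb4. The smallest edgeR adjusted p was 0.367, for Hoxa5, followed by 0.642 for Hoxa2 and 0.678 for Hoxb4. The 95% intervals were -0.64 to 0.48 for Hoxb2 and -0.90 to 0.38 for Hoxb4. Each of these includes 0. Hoxa5 passed the filter on low counts only through the 2 WT libraries, and so had to be lower in Sox17eKO. The median log2 fold change of the 6 tested genes was -0.23, against -0.01 over all tested genes. It supports no direction, since 0 of these genes were called with 2 libraries per genotype. Through Hoxa5 it also carries the filter on low counts. Without Sox17eKO replicate 2 the log2 fold change was -1.57 for Hoxa2 and -1.75 for Hoxa5, and without Sox17eKO replicate 1 it was -0.12 and -0.47, with no call in either fit.

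**Figure D4:**
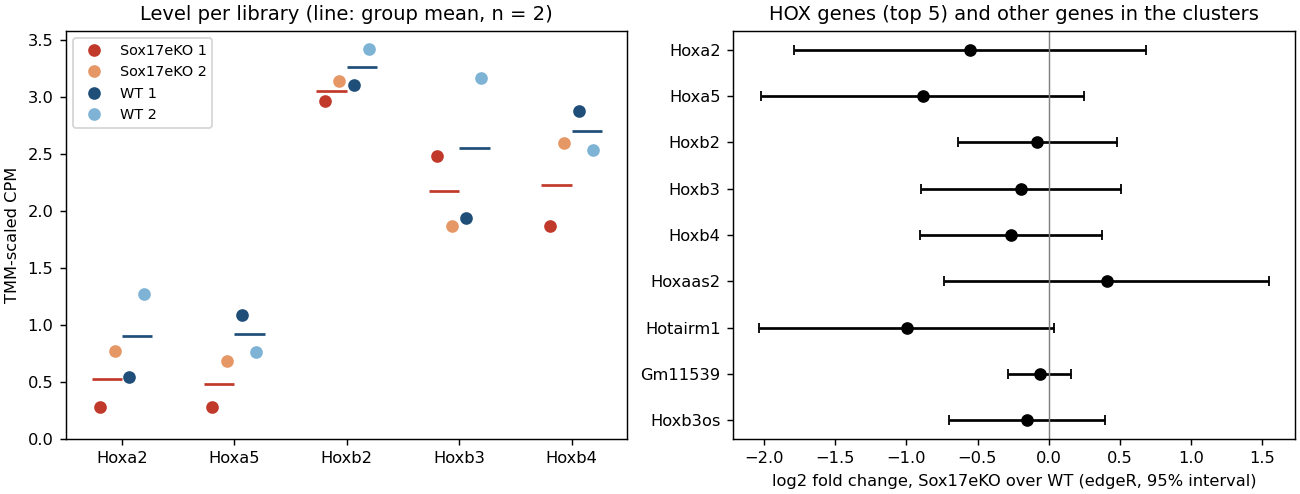
Left: TMM-scaled CPM of 5 tested HOX genes in each library, with group means (n = 2). Right: log2 fold change of Sox17eKO over WT with the edgeR 95% interval for these genes and for the 4 other tested genes within the clusters. Every interval includes 0.

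The sum over all 39 genes was 14.4 and 15.7 CPM in the Sox17eKO libraries, against 16.9 and 17.7 CPM in the WT libraries. Per kb of exons it averaged 5.28 ± 0.517 in Sox17eKO and 6.32 ± 0.131 in WT (SD, n = 2 each), a ratio of 0.836. At equal depth the ratio of reads was 0.882 (95% counting interval 0.771 to 1.01), and with 2 libraries per genotype the smallest two-sided p of an exact permutation test is 0.333, so none is given. In bulk tissue, fewer cells that express these genes and less RNA per cell cannot be told apart. Of the 37 genes with a read, the Sox17eKO and WT values did not overlap in 12, with Sox17eKO higher in 4 and lower in 8, or 10.8% and 21.6%. Among all 27989 genes with a read these shares were 22.8% and 19%, and among the 16570 tested genes 26.5% and 26.2%. Marker sums of several other cell types were also lower in Sox17eKO, with no overlap between the genotypes. These include the erythroid sum given above, and the blood progenitor and leukocyte sum, which was mostly Cd34. The other tested markers of that blood list did not share the fall of its sum. Their log2 fold changes were -0.06 for Myb, -0.004 for Kit, 0.05 for Ptprc and 0.11 for Csf1r. The 5 epicardial markers summed to 230 and 204 CPM in Sox17eKO and 258 and 272 CPM in WT, with Upk3b and Lrrn4 called lower. The 4 smooth muscle markers summed to 1704 and 1648 CPM in Sox17eKO and 1860 and 1892 CPM in WT, with Cnn1 called lower. The crest mesenchyme sum was also lower without overlap, by a narrow margin and without a call. It was 230 and 235 CPM in Sox17eKO and 257 and 237 CPM in WT. For the 6 endothelial markers the sums were 744 and 798 CPM in Sox17eKO and 805 and 823 CPM in WT, with Tie1 called lower. The endothelial markers did not move alike, with a median log2 fold change of -0.08. Kdr was higher in Sox17eKO, at 137 and 155 CPM against 128 and 133 CPM in WT, without a call. Reads that overlapped no counted feature were a larger share in both Sox17eKO libraries, at 34.1% and 29.5%, against 22.2% and 20.4% in WT. The part of these differences in the HOX sum was not tested. In the 2 libraries with little Afp, Sox17eKO replicate 1 and WT replicate 2, the ratio of the sums was 0.766. Genes with short exons had lower fold changes throughout, with medians of -0.13 and -0.06 in the shortest and the next of 4 equal classes of genes by exon length, against 0.12 in the longest. The tested HOX genes have 1775 to 4251 exonic bases. With only protein-coding genes fitted their median log2 fold change was -0.22, and with smooth trends on exon length and gene span also removed it was -0.17.

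Few other transcripts came from the clusters. The spans of the 4 clusters, 96.8 to 173.9 kb long, hold 46 other annotated genes, of which 20 had a read and 2 averaged at least 1 CPM. Hoxb3os, an antisense RNA that overlaps Hoxb2 and Hoxb3, had 48 and 69 reads in Sox17eKO (3.31 and 3.14 CPM), against 50 and 25 reads in WT (3.88 and 3.16 CPM). Its total of 192 reads compares with 179 for Hoxb2 and 127 for Hoxb3. Gm11539, a processed pseudogene between Hoxb13 and Hoxb9, had 36.8 and 31.9 CPM in Sox17eKO and 37.5 and 33.8 CPM in WT, and reads of its parent gene may be counted there. Over the whole table, genes whose exons lie wholly under a gene of the opposite strand had reads in 45.5% of cases, against 12.5% of those wholly under a gene of the same strand, by annotation that may differ from the one used for counting. At the Hoxa end, 2 antisense RNAs were also tested and are named here after their values were seen. Hotairm1 had 9 and 10 reads in Sox17eKO, against 14 and 8 in WT. Its log2 fold change had a 95% interval of -2.04 to 0.04 (edgeR adjusted p = 0.257), and it met the filter on low counts only through WT. Hoxaas2, which reaches from near Hoxa2 into Hoxa3, had 7 and 31 reads in Sox17eKO, against 12 and 4 in WT. The 7 microRNA genes of the clusters had 1 read in all, from Mir10a beside Hoxb4. Hotair, a long noncoding RNA of the Hoxc cluster, had 2 reads over the 4 libraries.

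Partners and regulators of HOX proteins were also counted. Of the 9 cofactor genes (PBX, MEIS and PKNOX families, which bind DNA with HOX proteins), 9 were tested, 1 rose and 8 did not pass, with a median log2 fold change of 0.18. Meis2 rose, at 190 and 171 CPM in Sox17eKO, against 147 and 135 CPM in WT, or 0.35 ± 0.08 on the log2 scale (edgeR adjusted p = 0.0160). Its level per kb, 13.4, was above that of every HOX gene. The call ended without Sox17eKO replicate 1 (edgeR adjusted p = 0.135), without WT replicate 2 (0.153) and, among protein-coding genes, once trends on exon length and gene span were both taken out (0.14 on the log2 scale, edgeR adjusted p = 0.404).

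Of 20 Polycomb and Trithorax genes, whose products silence and maintain HOX clusters, 20 were tested, 2 rose and 18 did not pass, with a median of -0.03. Kmt2a, the histone methyltransferase that maintains HOX expression, rose, with 73.4 and 77.3 CPM in Sox17eKO, against 56.6 and 49.8 CPM in WT (log2 fold change 0.50 ± 0.09, edgeR adjusted p = 0.00264). Kdm6a, a demethylase of the Polycomb mark, rose by 0.30 ± 0.08, with 73.5 and 70.0 CPM in Sox17eKO and 59.5 and 56.8 CPM in WT (edgeR adjusted p = 0.0368). Among protein-coding genes, both calls ended once the trends on exon length and gene span were taken out (0.26 and 0.17 on the log2 scale, edgeR adjusted p = 0.128 and 0.335). The part of the larger share of reads outside counted features in Sox17eKO in these rises and in that of Meis2 was not tested. These are long transcripts, with 16670 and 8383 exonic bases. The Kdm6a call also ended without Sox17eKO replicate 1 (edgeR adjusted p = 0.211), without WT replicate 2 (0.231), with DESeq2 (0.107) and with limma-voom (0.0712).

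Of 12 genes that set axial borders in the embryo, 4 were tested with edgeR and 0 passed, with 0 at an unadjusted p under 0.05 and a median of -0.13. Gdf11, a ligand of the trunk-to-tail transition, had 21.5 and 27.2 CPM in Sox17eKO and 26.0 and 28.6 CPM in WT. The posterior HOX inducers Cdx1, Cdx2 and Cdx4 had 1, 1 and 0 reads over the 4 libraries. Of 14 homeobox genes of the HOX-free first arch and its neighbours, 5 were tested with edgeR and 0 passed, with 0 at an unadjusted p under 0.05 and a median of 0.10. Msx1 had 14.1 and 14.2 CPM in Sox17eKO and 16.3 and 16.4 CPM in WT, and Msx2 9.65 and 8.05 CPM in Sox17eKO and 8.76 and 7.46 CPM in WT.

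Marker lists give the setting for these levels. Crest mesenchyme markers (10 genes) summed to 230 and 235 CPM in Sox17eKO and 257 and 237 CPM in WT. Hand2, also in the pharyngeal mesoderm list below, gave 107 and 119 CPM of this in Sox17eKO and 124 and 122 CPM in WT. Twist1 and Prrx1 averaged 52.8 and 42.5 CPM, and Tfap2a, Dlx5 and Dlx6 0.216, 0.267 and 0.173 CPM. A second list, of crest and Schwann precursor markers (9 genes), summed to 158 and 176 CPM in Sox17eKO and 187 and 169 CPM in WT. Most of it was Ednrb, at 115 and 139 CPM in Sox17eKO and 145 and 127 CPM in WT. Sox10, a defining gene of the second list, had 0.345 and 0.773 CPM in Sox17eKO and 1.16 and 0.506 CPM in WT. Pharyngeal mesoderm markers (10 genes), some of which heart muscle shares, summed to 319 and 342 CPM in Sox17eKO and 326 and 316 CPM in WT, while Tbx1, a defining gene of that mesoderm, had 0 and 0.364 CPM in Sox17eKO and 0 and 0 in WT. Markers of the neural tube and the limb bud were low. Neural tube markers (8 genes) summed to 0.828 and 2.46 CPM in Sox17eKO and 1.24 and 1.39 CPM in WT, with Olig2 at 0, and limb bud markers (5 genes) to 0.828 and 1.09 CPM in Sox17eKO and 1.40 and 0.506 CPM in WT. Pharyngeal endoderm and foregut markers (10 genes) summed to 2.14 and 3.64 CPM in Sox17eKO and 3.34 and 1.90 CPM in WT, with Nkx2-1 and Foxn1 at 0. Somite and body wall markers (8 genes) summed to 59.9 and 57.7 CPM in Sox17eKO and 63.4 and 51.0 CPM in WT, nearly all from Meox1, and neuronal markers (9 genes) to 41.2 and 31.0 CPM in Sox17eKO and 41.4 and 40.0 CPM in WT. Which cells carried the HOX reads was not measured.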

How the data were processed

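RNA was measured in 4 libraries, 2 Sox17eKO and 2 WT. Strand-specific libraries were made from TRIzol-extracted total RNA, per the labels' protocols. Raw counts of reads for each Ensembl gene were deposited, made with TopHat2 and HTSeq on mm10 per the submitters' processing notes, whose versions, annotation release and strand setting are not given in the sources used here. Sample titles gave group and replicate. Reads that overlapped no counted feature, which can include intronic reads, made up 34.1% and 29.5% of assigned, ambiguous and unassigned reads together in Sox17eKO and 22.2% and 20.4% in WT, and ambiguous reads 3.38% and 5.39% in Sox17eKO and 5.05% and 6.22% in WT; these summary entries entered neither library sizes nor tests. Replicates were not copies of each other: the chi-square statistic between them, over its degrees of freedom, was 6.51 in Sox17eKO and 5.16 in WT.

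Symbols, coordinates and exon lengths came from GENCODE M21 (GRCm38), which matched 45143 of 45706 genes. Genes were kept by filterByExpr (at least 10 reads at the median library size, 0.736 CPM, in 2 libraries, and 15 reads in all) and tested with edgeR 4.0.16 (quasi-likelihood, robust, TMM factors, prior count 0.125, R 4.3.3) with Benjamini-Hochberg adjustment over 16570 genes. The biological coefficient of variation was 0.0791. Standard errors were derived from the log2 fold change and the F statistic. Ratios between genes carry exact conditional 95% intervals over the reads of the 4 libraries, for 19 pairs. Scripts were tested on simulated counts. Alternatives were DESeq2 1.42.0, limma-voom (limma 3.58.1), other scalings and filters, a replicate block, each library left out, protein-coding genes only, and these with trends on exon length and gene span removed with mgcv 1.9.3.

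The HOX genes and all lists were chosen with earlier results of these data known. Values per library are given for the 3 highest genes per kb in each cluster, the 3 with the smallest p and the lowest and highest numbered gene with at least 1 read a library on average. Hoxb1, Hoxd1, Hoxa3, Hoxa4, Hoxa6 and Hoxb5 were named after their values were seen, as neighbours or paralogues of those. Some genes that the rule names are not reported here.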

Additional observations from a re-analysis of the deposited data

How the results depend on the processing

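No HOX gene was called in any of the 14 alternative fits, in which 4 to 37 of the 39 were tested; DESeq2 gives no adjusted p for the 6 genes of the main test. The median log2 fold change of those tested stayed below 0 throughout, between -0.17 and -0.26 with all libraries and between -0.43 and -0.10 with 1 library left out. With the replicate number as a block it was -0.25 and 0 HOX genes passed, while 1684 of all genes passed in place of 886; the deviations of same-numbered libraries did not correlate (r = -0.02), so the numbers name libraries only. The log2 fold changes of Hoxa2 and Hoxb3 turned above 0 in 1 and 2 of the fits with a library left out, without a call. With 1 library left out the ratio of summed levels between genotypes ran between 0.602 and 0.983 for Hoxc and between 0.828 and 1.14 for Hoxd. The Hoxd ratio was 1.23 per unshared exonic base and 0.957 per merged exon length. Shares of the HOX level, as a mean of the 4 libraries, shifted with the length used. Per unshared base, paralogues 1 to 3 held 60.0%, paralogues 4 to 8 32.1%, Hoxa 35.0%, Hoxb 49.8% and Hoxd 8.81%, and without division by length 58.4%, 31.9%, 33.4% and 52.4% for the first 4 of these. With the longest transcript paralogues 4 to 8 held 35.6%. Per merged exon length the shares were 52.7%, 37.6%, 39.4%, 45.6% and 7.05%. Depth limits these results, since 22 of the 39 HOX genes had under 10 reads in all, and so does the number of libraries, 2 per genotype.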
